A study of Homo sapiens with 12 samples.

Results

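Glycolysis turns glucose into pyruvate, and the genes described here encode 10 enzymes that catalyse its 10 reactions: HK2, GPI, PFKP, ALDOA, TPI1, GAPDH, PGK1, PGAM1, ENO1 and PKM. They were chosen by gene symbol, in the order of the reactions, with earlier results of these data known. All 10 were found among the 63187 genes of the table, and all 10 were among the 9270 genes with enough reads to be tested. The cells were MDA-MB-231, a human line established from a breast adenocarcinoma and known for a mesenchymal-like form. The deficient medium held neither glucose nor glutamine, the glucose-only medium held 25 mM glucose, the glutamine-only medium held 4 mM glutamine, and full medium had both nutrients at those concentrations. Each was kept on the cells for 36 h with 3% fetal bovine serum, and each gave 3 libraries, lettered A, B and C. Nothing in the labels says that the letters stand for separate cultures, so the p-values measure only the spread between libraries, which may be technical.

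The upper steps of glycolysis spend ATP and the lower steps regain it. Hexokinase traps glucose as glucose 6-phosphate, phosphoglucose isomerase and phosphofructokinase prepare and commit it, and aldolase splits the sugar into triose phosphates that triosephosphate isomerase interconverts. Glyceraldehyde-3-phosphate dehydrogenase, phosphoglycerate kinase, phosphoglycerate mutase, enolase and pyruvate kinase then yield NADH, ATP and pyruvate. In human cells many of these genes are known targets of the hypoxia-inducible factor HIF-1 and of MYC. Glutamine is the other main carbon source of cultured cells and feeds the citric acid cycle through glutamate.

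The libraries were stranded total RNA depleted of ribosomal RNA, with 875033 to 1473587 reads assigned to genes. The values are normalized counts, the number of reads divided by a size factor of the library, and 1 read was worth 0.661 to 1.30. Protein-coding genes took 47.3% of reads in deficient medium, 44.4% in glucose-only, 51.1% in glutamine-only and 55.4% in full medium. The labelled cell type was met by its markers in part: the keratin genes KRT8, KRT18 and KRT19 had 59.0 to 396 normalized counts, the epithelial adhesion gene CDH1 at most 0.917, and VIM and CD44, which mark the mesenchymal-like form, 377 to 1047. Of the 6 mesenchymal-like markers SPARC stayed at or under 1.32 in every library. All 5 blood, all 5 fibroblast and all 3 adipocyte markers stayed under 10 in every library, and the highest endothelial value was 19.7. Of the 1350 coding bases of ALDOA, 1266 (93.8%) lie under exons of another gene on the same strand in GENCODE release 29, so its low values may not count all of its reads. The share of ALDOA reads lost in this way was not tested.

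The start regions of PGK1, TPI1 and HK2 are shown because PGK1 and TPI1 had the largest falls and HK2 was the member that rose in deficient medium. The sequences are RefSeq windows of GRCh38.p14, from 250 bases before to 50 bases after a transcript start, on the plus strand. Capitals mark ACGTG or GCGTG, the core of the site that HIF-1 binds, on either strand (CACGT and CACGC on the strand shown).
PGK1 (chrX:78103998-78104297): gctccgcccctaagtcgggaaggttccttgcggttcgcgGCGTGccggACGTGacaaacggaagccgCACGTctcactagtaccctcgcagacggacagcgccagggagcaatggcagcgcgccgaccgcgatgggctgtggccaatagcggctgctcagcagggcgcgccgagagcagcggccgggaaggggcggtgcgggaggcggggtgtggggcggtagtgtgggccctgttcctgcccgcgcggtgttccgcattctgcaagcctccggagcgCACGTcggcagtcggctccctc
TPI1, first start (chr12:6867281-6867580): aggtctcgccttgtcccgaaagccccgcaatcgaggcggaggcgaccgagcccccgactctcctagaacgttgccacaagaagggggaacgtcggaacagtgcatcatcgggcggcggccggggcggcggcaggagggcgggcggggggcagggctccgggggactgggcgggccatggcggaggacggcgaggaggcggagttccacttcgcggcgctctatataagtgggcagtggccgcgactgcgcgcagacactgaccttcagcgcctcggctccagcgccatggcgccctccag
HK2, first start (chr2:74833877-74834176): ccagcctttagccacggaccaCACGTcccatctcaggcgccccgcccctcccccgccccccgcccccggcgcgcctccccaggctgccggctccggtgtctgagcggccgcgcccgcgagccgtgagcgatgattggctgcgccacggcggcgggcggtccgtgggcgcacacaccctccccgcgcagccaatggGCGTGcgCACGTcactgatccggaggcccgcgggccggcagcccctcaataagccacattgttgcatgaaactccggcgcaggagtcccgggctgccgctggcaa
HK2, second start (chr2:74834920-74835219): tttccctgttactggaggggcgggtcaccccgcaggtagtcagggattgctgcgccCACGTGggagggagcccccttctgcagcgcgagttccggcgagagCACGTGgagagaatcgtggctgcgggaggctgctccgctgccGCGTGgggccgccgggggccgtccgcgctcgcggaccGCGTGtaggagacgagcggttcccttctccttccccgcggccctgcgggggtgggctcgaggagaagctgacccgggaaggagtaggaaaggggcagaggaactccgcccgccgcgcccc
The PGK1 window held 3 matches to ACGTG and 1 to GCGTG. The first TPI1 window held neither motif and 5 copies of GGGCGG, the GC box, while a second TPI1 window further downstream held 1 match to each HIF core. The second HK2 window held 2 copies of CACGTG, the E-box that MYC and MondoA recognise, and each copy is also an ACGTG match on both strands. Over the 17 windows of the 10 genes, 13 held ACGTG or GCGTG, against 48.4% of all 35116 windows of the table. PGAM1 was the gene with no such window, but its only window is set on a transcript start 1627 bases downstream of the gene start. The gene start of PGAM1 itself was therefore not searched. Other windows also lie far from the gene start, at 5274 bases for GPI and up to 37061 for PFKP. CACGTG was found in 3 of the 17 windows, in HK2, ALDOA and GAPDH, against 7.26% of all windows, and GGGCGG in 12, against 45% of all windows. A match is a run of letters and was not tested as a binding site.

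In all 3 media that lacked a nutrient, most of the enzyme genes were lower than in full medium, and the loss of glutamine went with the larger falls. In deficient medium 7 of 10 fell and HK2 rose; 51.8% of all tested genes passed the same threshold (25.5% lower and 26.3% higher). In glucose-only medium 9 of 10 fell, against 22.9% of all tested genes called (13.5% lower and 9.44% higher). In glutamine-only medium 7 of 10 fell, against 22.5% called (11.6% lower and 10.8% higher). The median log2 change of the 10 genes was -1.25 in deficient, -1.23 in glucose-only and -0.58 in glutamine-only medium, where the medians of all tested genes were 0.01, -0.03 and -0.01. The 3 comparisons share the full libraries. Calls are limma-trend tests on log2(normalized count + 1), adjusted over all tested genes, with a threshold of 0.05. In bulk RNA, fewer cells with a transcript and less of it per cell cannot be told apart.

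**Figure D1:**
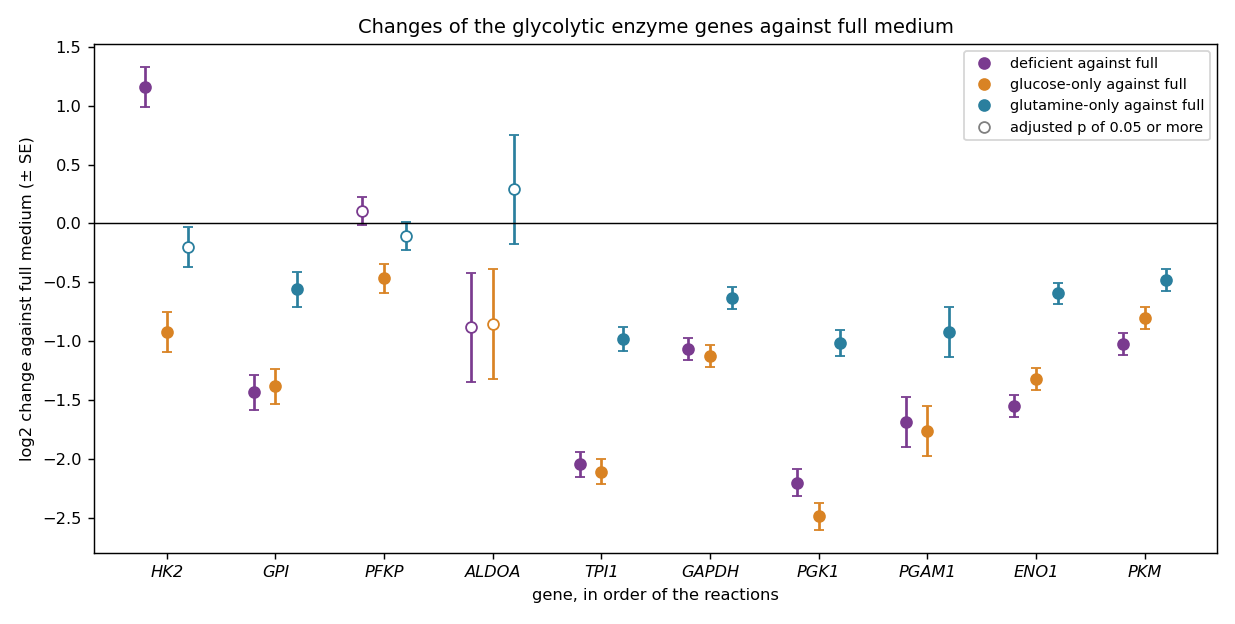
Log2 changes (± SE) of the 10 genes in deficient, glucose-only and glutamine-only medium against full medium, in the order of the reactions, with open circles where the adjusted p was 0.05 or more. PGK1 and TPI1 lie lowest, and HK2 in deficient medium is the one filled point above 0, at 1.16.

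Together the 10 genes took 0.428 ± 0.00957% of protein-coding reads in deficient medium, 0.521 ± 0.00942% in glucose-only, 0.758 ± 0.00499% in glutamine-only and 1.18 ± 0.0232% in full medium (SD, n = 3 each). Full medium was highest and glutamine-only medium next in this share too. The share of protein-coding reads in the libraries had the same 2 media on top but was lowest in glucose-only medium. Summed normalized counts were 2485 ± 20.8 in deficient, 2509 ± 47.2 in glucose-only, 3924 ± 51.8 in glutamine-only and 6098 ± 87.1 in full medium. ENO1, PKM and GAPDH make up most of these sums, so they say little of the weaker members.

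**Figure D2:**
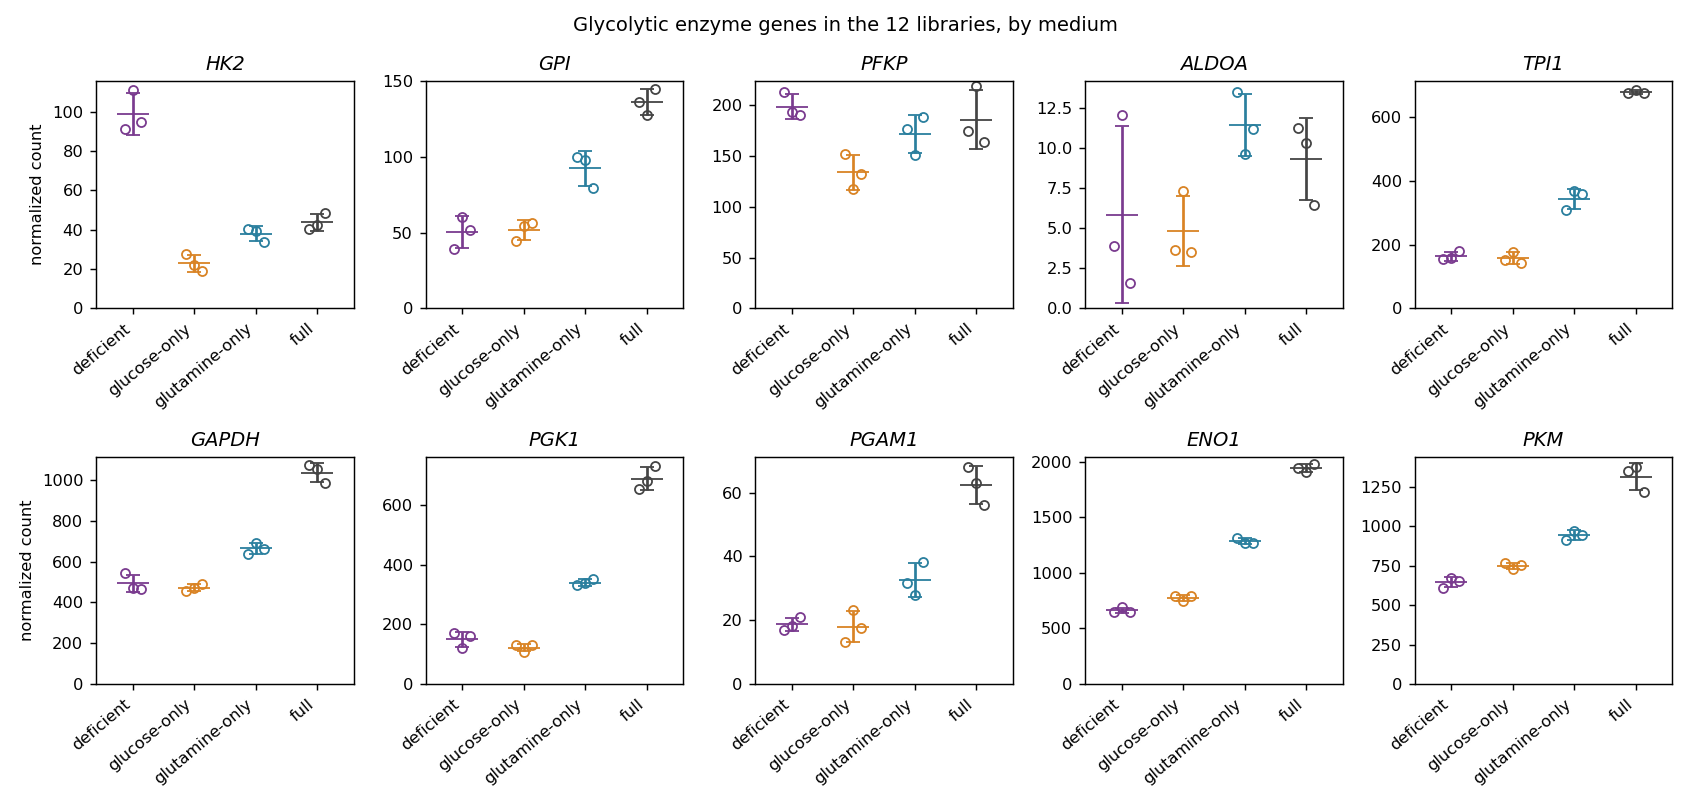
Normalized counts of the 10 genes in the 12 libraries, 1 circle per library, with the mean (bar) and SD of each medium and an axis from 0. Most panels step upward to full medium on the right, HK2 is highest in deficient medium, and ALDOA reaches no more than 13.5.

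HK2, the inducible hexokinase that opens the pathway (ENSG00000159399, chromosome 2, 74834127 to 74893359), was the only member called higher than in full medium. It had 91.1, 111 and 94.7 normalized counts in deficient medium, 27.7, 22.0 and 18.8 in glucose-only medium, 40.6, 39.5 and 33.6 in glutamine-only medium and 40.3, 42.3 and 48.6 in full medium. All 3 deficient libraries lay above all others and all 3 glucose-only libraries below all others, while glutamine-only and full libraries overlapped. Against full medium HK2 rose in deficient medium, by 1.16 ± 0.17 (limma log2 change ± SE, adjusted p = 1.62e-06), and fell in glucose-only medium, with a log2 change of -0.92 ± 0.17 (adjusted p = 0.000173). Its value in glutamine-only medium was -0.20 ± 0.17 (adjusted p = 0.438), with a 95% interval of -0.55 to 0.14. The level in glucose-only medium was 4.23-fold lower than in deficient medium. PFKP had the same order of medium means, with smaller differences.

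GPI, the isomerase that makes fructose 6-phosphate (ENSG00000105220, chromosome 19, 34359718 to 34402413), had 39.1, 60.4 and 52.0 normalized counts in deficient medium, 44.6, 54.5 and 56.4 in glucose-only, 100.1, 98.2 and 79.2 in glutamine-only and 136, 128 and 145 in full medium. The full libraries were the highest, the glutamine-only libraries came next, and the remaining 6 overlapped. GPI fell in all 3 media, with log2 changes of -1.44 ± 0.15 in deficient medium (limma adjusted p = 4.30e-09), -1.38 ± 0.15 in glucose-only medium (adjusted p = 4.44e-08) and -0.56 ± 0.15 in glutamine-only medium (adjusted p = 0.00674). Without glutamine-only library C the last value was -0.45 and no longer passed (adjusted p = 0.0557).

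PFKP is the platelet form of phosphofructokinase and the committed step of the pathway (ENSG00000067057, chromosome 10, 3067548 to 3136805). It had the smallest change of the members in each comparison with full medium. Between glucose-only and deficient medium PFKP was lower in the former, with a log2 change of -0.57 ± 0.12 (limma adjusted p = 0.000334). Its normalized counts were 213, 193 and 190.2 in deficient medium, 152, 117 and 133 in glucose-only, 177, 151 and 188 in glutamine-only and 175, 219 and 164 in full medium. The glucose-only libraries were all below the full ones, while the full libraries overlapped with both the deficient and the glutamine-only ones. PFKP fell in glucose-only medium, with a log2 change of -0.47 ± 0.12 (limma adjusted p = 0.00526), but without full library B the value was -0.35 (adjusted p = 0.0608). It measured 0.10 ± 0.12 in deficient and -0.11 ± 0.12 in glutamine-only medium, neither past the threshold.

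ALDOA, aldolase A (ENSG00000149925, chromosome 16, 30064279 to 30070420), had too few reads for a firm statement. It had 3.90, 12.1 and 1.55 normalized counts in deficient medium, 3.61, 7.33 and 3.53 in glucose-only, 13.5, 9.63 and 11.2 in glutamine-only and 11.2, 10.3 and 6.42 in full medium. The groups overlapped in every comparison with full medium, and none passed. The log2 change in deficient medium was -0.88 ± 0.46 (limma adjusted p = 0.113), and without deficient library B it was -1.51 and passed (adjusted p = 0.0077). Values of -0.85 ± 0.46 in glucose-only and 0.29 ± 0.46 in glutamine-only medium had the same wide error.

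TPI1, the triosephosphate isomerase (ENSG00000111669, chromosome 12, 6867420 to 6870948), had 154, 158 and 180.1 normalized counts in deficient medium, 153, 178 and 141 in glucose-only, 308, 368 and 358 in glutamine-only and 676, 687 and 677 in full medium. The full libraries lay close together and above all others, the glutamine-only libraries came next, and the other 6 overlapped. TPI1 was 4.14-fold lower in deficient medium, 4.32-fold lower in glucose-only medium and 1.98-fold lower in glutamine-only medium than in full medium. As limma log2 changes these were -2.05 ± 0.10, -2.11 ± 0.10 and -0.98 ± 0.10, with the largest adjusted p at 2.67e-08.

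GAPDH, the dehydrogenase of the first energy-yielding step (ENSG00000111640, chromosome 12, 6534517 to 6538371), had 543, 469.7 and 466 normalized counts in deficient medium, 458, 473 and 488 in glucose-only, 639, 692 and 663 in glutamine-only and 1072, 1051 and 982 in full medium. No library of the other media came near the lowest full library. Limma log2 changes were -1.07 ± 0.09 in deficient, -1.13 ± 0.09 in glucose-only and -0.64 ± 0.09 in glutamine-only medium, with the largest adjusted p at 6.86e-06.

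PGK1, phosphoglycerate kinase (ENSG00000102144, chromosome X, 78104248 to 78129295), makes the first ATP of the pathway and had the largest fall of the 10 in each of the 3 comparisons with full medium. Normalized counts were 169, 121 and 160.0 in deficient medium, 130.1, 107 and 129 in glucose-only, 330.1, 338 and 351 in glutamine-only and 655, 681 and 730.2 in full medium. The full libraries stood clear of the glutamine-only ones, and those clear of the other 6. PGK1 was 4.61-fold lower in deficient medium (log2 -2.20 ± 0.11, limma adjusted p = 1.09e-15), 5.62-fold lower in glucose-only medium (log2 -2.49 ± 0.11, adjusted p = 4.34e-16) and 2.02-fold lower in glutamine-only medium (log2 -1.02 ± 0.11, adjusted p = 7.09e-08).

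PGAM1, the mutase that moves the phosphate of phosphoglycerate (ENSG00000171314, chromosome 10, 97426191 to 97433444), had 16.9, 18.1 and 21.0 normalized counts in deficient medium, 13.2, 23.1 and 17.6 in glucose-only, 31.6, 27.9 and 38.2 in glutamine-only and 68.1, 63.0 and 56.0 in full medium. All 3 media fell clear of full medium, with limma log2 changes of -1.69 ± 0.21 in deficient, -1.77 ± 0.21 in glucose-only and -0.92 ± 0.21 in glutamine-only medium and a largest adjusted p of 0.00191. Of the 50-base stretches of its longest transcript, 43.1% also occur in transcripts of genes elsewhere, so its level is uncertain. The 14 rows of its named pseudogenes summed to 4.79% of its own level. Of the other members, TPI1 shared 20.8% of such stretches with genes elsewhere, GAPDH 13.8% and HK2 8.58%, and the rest at most 3.41%.

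ENO1, the main enolase (ENSG00000074800, chromosome 1, minus strand, 8861000 to 8878686), was the most abundant of the 10 in normalized counts. It had 649.5, 692 and 645 in deficient medium, 791, 745 and 792 in glucose-only, 1316, 1271 and 1272 in glutamine-only and 1947, 1909 and 1976 in full medium. The 4 media did not overlap. ENO1 fell in all 3, with log2 changes of -1.55 ± 0.09 in deficient, -1.32 ± 0.09 in glucose-only and -0.60 ± 0.09 in glutamine-only medium, with the largest limma adjusted p at 1.64e-05.

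PKM, pyruvate kinase and the last step (ENSG00000067225, chromosome 15, minus strand, 72199029 to 72231591), had 608, 669 and 652 normalized counts in deficient medium, 767, 728 and 753 in glucose-only, 911, 972 and 943 in glutamine-only and 1352, 1373 and 1214 in full medium. Its media did not overlap either. Falls were smaller than those of ENO1, with limma log2 changes of -1.03 ± 0.09, -0.81 ± 0.09 and -0.48 ± 0.09 in the same order of media and a largest adjusted p of 0.000337. Gene-level counts do not separate the PKM1 and PKM2 splice forms.

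Ranked by mean, GPI, TPI1, GAPDH, PGK1, PGAM1, ENO1 and PKM were highest in full medium and next in glutamine-only medium, and both steps passed in each. The glucose-only and deficient media at the bottom of that order overlapped for GPI, TPI1, GAPDH and PGAM1, with a limma adjusted p of 0.657 or more. For PKM they did not overlap, and the difference of 0.22 missed the threshold (limma adjusted p = 0.0566). For HK2 the order was deficient, full, glutamine-only and glucose-only medium, with no difference passed between full and glutamine-only. For PFKP no neighbouring pair passed except glutamine-only over glucose-only medium, and for ALDOA no neighbouring pair passed.

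Set against each other, the glucose-only medium gave lower values than the glutamine-only medium in 9 of 10 genes, against 13.3% of all tested genes called (8.26% lower and 5.05% higher), with a median log2 change of -0.78. PGK1 was at -1.47 ± 0.11, TPI1 at -1.13 ± 0.10, GPI at -0.82 ± 0.15, ENO1 at -0.73 ± 0.09 and GAPDH at -0.49 ± 0.09, all past the threshold under every alternative in which they were tested. The call for HK2 at -0.72 ± 0.17 was lost in DESeq2 alone (adjusted p = 0.0942). The call for PGAM1 at -0.84 ± 0.21 was lost without glucose-only library A or glutamine-only library C (limma adjusted p 0.0567 and 0.058), and in DESeq2. That for PKM at -0.33 ± 0.09 was lost without glucose-only library B, glutamine-only library B or glutamine-only library C (limma adjusted p 0.0516 to 0.0745). PFKP at -0.36 ± 0.12 lost its call without glucose-only B or C, glutamine-only A or C or full A (limma adjusted p 0.0538 to 0.213), and also with no filter, quantile normalization, median of ratios on nuclear protein-coding genes and DESeq2.

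Glutamine given alone went with higher levels than the deficient medium in 8 of 10 genes, and HK2 fell; 41.5% of all tested genes were called (19.9% higher and 21.6% lower). The rises were 1.19 ± 0.11 for PGK1, 1.07 ± 0.10 for TPI1, 0.96 ± 0.09 for ENO1, 0.88 ± 0.15 for GPI, 0.77 ± 0.21 for PGAM1, 0.55 ± 0.09 for PKM and 0.43 ± 0.09 for GAPDH (log2), and HK2 fell by 1.36 ± 0.17. ALDOA, at 1.17 ± 0.46, passed with a limma adjusted p of 0.0429 and lost the call without deficient A or C, any 1 glutamine-only library, full A or full B (adjusted p 0.0501 to 0.3), and with quantile normalization, the 2 groups alone, DESeq2 or its pseudogene rows added. PFKP measured -0.21 ± 0.12 and did not pass.

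Glucose given alone changed fewer of them. Against deficient medium 3 of 10 genes fell and 1 rose, where 43.2% of all tested genes were called (23.2% lower and 20.1% higher). HK2 (log2 -2.08 ± 0.17) and PFKP (log2 -0.57 ± 0.12) fell, both under every alternative in which they were tested. PGK1, at -0.29 ± 0.11 (limma adjusted p = 0.0427), lost its call without deficient A or C, glucose-only B, glutamine-only B or full A (adjusted p 0.0504 to 0.227). Its value was -0.10 with equal totals and -0.04 with quantile normalization (limma adjusted p 0.58 and 0.8), and edgeR, DESeq2, no filter and the 2 groups alone also lost the call. ENO1, at 0.23 ± 0.09 (limma adjusted p = 0.0462), lost its call without any 1 library other than deficient B, full B and full C (adjusted p 0.0502 to 0.117), and with a pseudocount of 8, no filter, the 2 groups alone or edgeR. The others lay between -0.08 and 0.22. PKM, at 0.22, passed with a filter at a mean of 100, equal totals, quantile normalization, nuclear protein-coding ratios or the replicate block. Its value was 0.40 with equal totals and 0.59 with quantile normalization (limma adjusted p 0.00392 and 1.89e-06).

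Whether glucose acted alike with and without glutamine was read from the interaction, the glucose effect with glutamine (full over glutamine-only) less the effect without it (glucose-only over deficient). It was above 0 and past the threshold in 7 of 10 genes, against 26.5% of all tested genes called (15.5% higher). HK2 had the largest value, 2.28 ± 0.24, with a glucose effect of -2.08 without glutamine while its level in glutamine-only medium was 0.20 below that in full medium, which did not pass. For TPI1, GAPDH and PGAM1 the glucose effect without glutamine was -0.06, -0.06 and -0.08, none past the threshold, while the same genes were 0.98, 0.64 and 0.92 lower in glutamine-only than in full medium. Their interactions were 1.04 ± 0.15, 0.69 ± 0.13 and 1.00 ± 0.30. The interaction was 1.30 ± 0.16 for PGK1 and 0.68 ± 0.17 for PFKP. ENO1, at 0.37 ± 0.13 (limma adjusted p = 0.038), lost its call without deficient A or B, glucose-only A or B, glutamine-only B or C, or full A or C (adjusted p 0.0511 to 0.0875). With quantile normalization ENO1 was at 0.13 (limma adjusted p = 0.519) and PFKP at 0.39 (adjusted p = 0.0891), and equal totals, no filter, nuclear protein-coding ratios, edgeR and DESeq2 also lost the ENO1 call, as DESeq2 did that of PGAM1. GPI at 0.51 ± 0.21 (limma adjusted p = 0.0751) passed without deficient A, at 0.68 (adjusted p = 0.0141), and PKM at 0.26 ± 0.13 (adjusted p = 0.157) and ALDOA at -0.32 ± 0.66 did not pass.

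**Figure D3:**
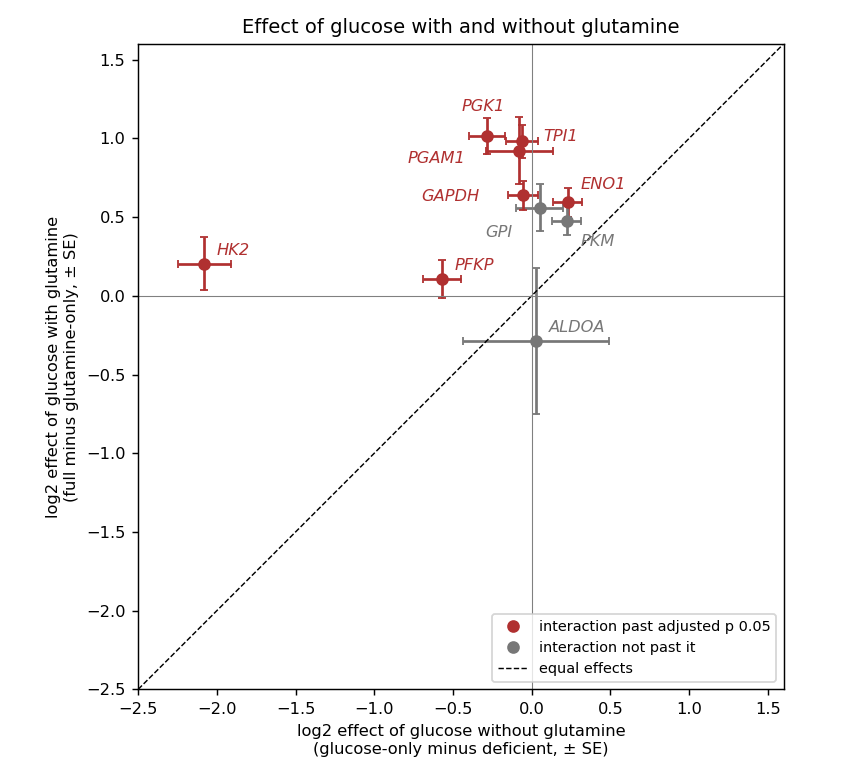
Log2 effect of glucose without glutamine (glucose-only minus deficient, x axis) and with glutamine (full minus glutamine-only, y axis) for the 10 genes, ± SE, with equal effects on the dashed line and red where the interaction passed. HK2 stands far to the left at -2.08, and 9 of 10 points lie above the line, ALDOA being the exception.

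Averaged over the presence of the other nutrient, glutamine went with higher levels in 8 of 10 genes (38.1% of all tested genes called, 19.5% higher), by 1.84 ± 0.08 for PGK1 and 1.59 ± 0.07 for TPI1 at the top. HK2 and PFKP did not pass, though PFKP did with equal totals (0.38, limma adjusted p = 0.0018). Among the 8, ALDOA at 1.01 ± 0.33 lost the call without deficient C (limma adjusted p = 0.0603) and in DESeq2 (adjusted p = 0.0509). The average glucose effect was higher in 7 genes and lower in HK2 and PFKP (38.9% of all tested genes called, 18.4% higher and 20.5% lower), with sizes from 0.29 to 0.46 for the 7 and -0.94 ± 0.12 for HK2. The glucose average of GPI, 0.31, lost its call without deficient A, glucose-only C, glutamine-only C or full C. That of PFKP, -0.23, lost it without deficient A, glucose-only B, glutamine-only A or C, or full A or C, and that of PGAM1, 0.42, without deficient A, glucose-only B, glutamine-only A or B, or full A or B (limma adjusted p 0.0511 to 0.101 over the 3 genes). With equal totals the PFKP value was -0.08 and with quantile normalization -0.11 (limma adjusted p 0.538 and 0.312), and DESeq2 and no filter lost the call for all 3. PGAM1 also lost its call with quantile normalization and with its pseudogene rows added (limma adjusted p 0.0611 and 0.055).

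Per kilobase of exon, a rough scale for comparing genes, ENO1 had 368 normalized counts in full medium, GAPDH 347, TPI1 252, PKM 153 and PGK1 125. The length covers all annotated exons of a gene, 8571 bases for PKM and 2700 for TPI1. Their longest protein-coding transcripts hold 2717 and 1763 bases, so the order of genes depends on the length used. The other genes were lower on this scale, with PFKP at 38.5, PGAM1 at 24.3, GPI at 12.8, HK2 at 7.21 and ALDOA at 2.38. In deficient medium the same scale gave ENO1 126, GAPDH 165, TPI1 60.7 and PGK1 27.2, against HK2 at 16.3.

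Other forms of the same enzymes were tested where they had enough reads, which was 7 of 17 listed. Of these, 2 rose and 2 fell in deficient, 1 rose and 3 fell in glucose-only, and 1 rose and 3 fell in glutamine-only medium. Of all tested genes 51.8%, 22.9% and 22.5% were called in the same order of media. HK1, the widely expressed hexokinase, had 103, 94.2 and 88.5 normalized counts in deficient medium, 49.4, 61.8 and 72.9 in glucose-only, 72.2, 69.3 and 58.7 in glutamine-only and 102, 111 and 108 in full medium. Unlike HK2, HK1 did not pass in deficient medium (-0.17 ± 0.14) and fell in the other media (-0.81 ± 0.14 and -0.68 ± 0.14). Per kilobase HK2 was 51.9 ± 3.63% of the sum of HK2 and HK1 in deficient medium, 28.3 ± 7.92% in glucose-only, 37.1 ± 0.193% in glutamine-only and 29.8 ± 1.80% in full medium (SD, n = 3 each). No test was run on these shares. HKDC1, a further hexokinase, had 6.51 to 10.1 in deficient, 2.41 to 4.70 in glucose-only, 7.46 to 12.5 in glutamine-only and 0 to 0.94 in full medium, and rose in all 3 comparisons. It reached 10 in only 3 libraries, none of them glucose-only or full. HKDC1 thus passed the filter only through media where it was high, and its rises are not independent of that filter.

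PFKL, the liver form of phosphofructokinase, had 15.6, 16.9 and 14.8 normalized counts in deficient medium, 27.7, 27.2 and 22.3 in glucose-only, 49.6, 32.7 and 43.8 in glutamine-only and 62.2, 72.4 and 62.4 in full medium. It fell, with log2 changes of -1.99 ± 0.19, -1.32 ± 0.19 and -0.65 ± 0.19 in that order of media, where PFKP did not pass in deficient and glutamine-only medium. PFKM, the muscle form, rose in deficient medium (0.51 ± 0.18, limma adjusted p = 0.019) and did not pass in the other media (0.06 and 0.36). ENO2, the enolase named for neurons, fell as ENO1 did, with log2 changes of -1.24 ± 0.12, -1.24 ± 0.12 and -0.41 ± 0.12. ADPGK, an ADP-dependent glucokinase, and BPGM, the bisphosphoglycerate mutase, did not pass in any of the 3, with values from -0.17 to 0.37.

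**Figure D4:**
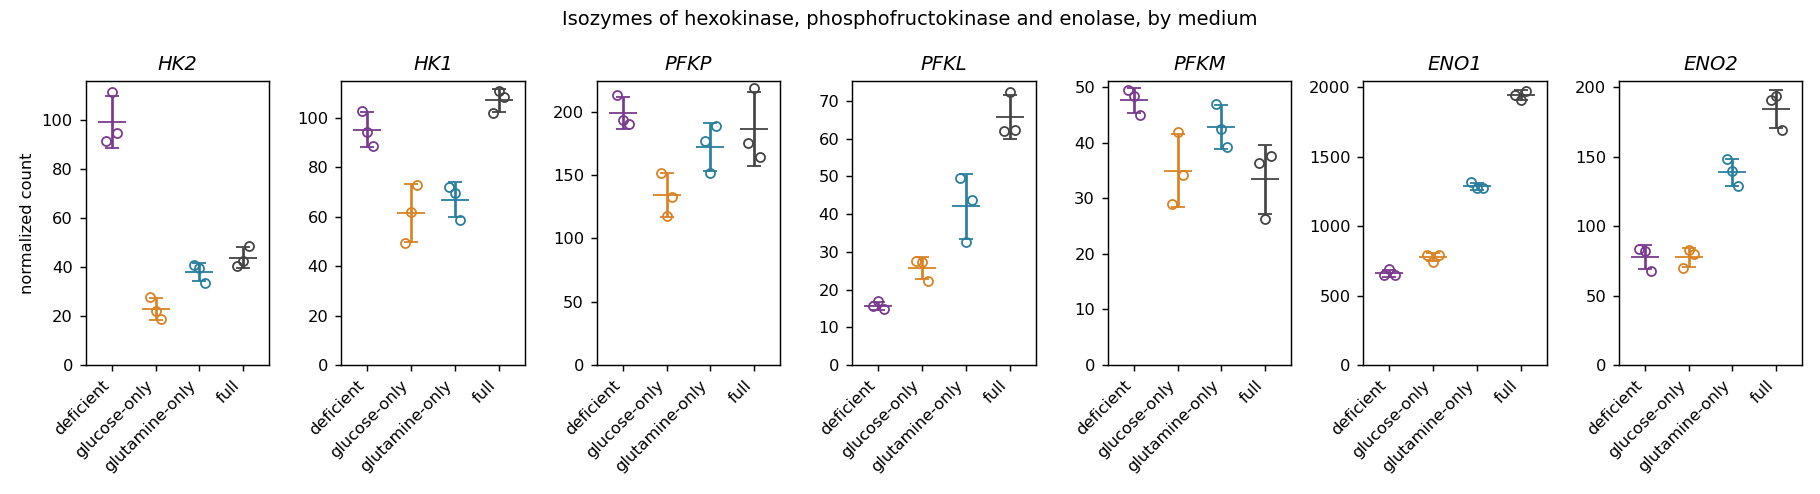
Normalized counts of HK2, HK1, PFKP, PFKL, PFKM, ENO1 and ENO2 in the 12 libraries, 1 circle per library, with mean (bar) and SD by medium and axes from 0. HK2 is highest in deficient medium where PFKL is lowest, and both ENO1 and ENO2 are highest in full medium.

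Genes around the pathway moved in both directions. Of 24 genes of sugar uptake, lactate export and pyruvate use, 18 were tested, of which 4 rose and 9 fell in deficient, none rose and 11 fell in glucose-only, and 2 rose and 5 fell in glutamine-only medium. The shares of all tested genes called were 51.8%, 22.9% and 22.5%. PDK1 and PDK3, kinases that hold pyruvate dehydrogenase inactive, fell, with log2 changes of -2.35 ± 0.21 and -2.80 ± 0.22 in deficient medium and -1.88 ± 0.21 and -1.74 ± 0.22 in glucose-only medium. In glutamine-only medium PDK3 fell by 0.70 ± 0.22 and PDK1 measured -0.28 ± 0.21. PDK4, another such kinase, rose by 0.98 ± 0.41 in deficient medium and fell in the others, at -1.61 ± 0.41 in glucose-only and -1.22 ± 0.41 in glutamine-only medium. Outside deficient medium PDK4 reached at most 10.1, so it passed the filter only through the deficient libraries. SLC2A3, a high-affinity glucose transporter, moved like HK2 against full medium in 2 of the 3 media, with 193, 175 and 195 normalized counts in deficient medium, 26.5, 32.5 and 28.2 in glucose-only, 67.7, 63.6 and 86.7 in glutamine-only and 46.3, 45.1 and 48.6 in full medium. It rose by 1.98 ± 0.14 in deficient, fell by 0.67 ± 0.14 in glucose-only and rose by 0.61 ± 0.14 in glutamine-only medium.

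Regulators of the flux were tested for 10 of 15 listed genes, of which 4 rose and 3 fell in deficient, 2 rose and 3 fell in glucose-only, and 1 rose and 4 fell in glutamine-only medium. Over all tested genes the shares called were 51.8%, 22.9% and 22.5%. TXNIP, a glucose-responsive inhibitor of glucose uptake, was high in the media with glucose, with 15.6, 16.9 and 14.8 normalized counts in deficient, 185, 195 and 174 in glucose-only, 8.12, 12.5 and 7.46 in glutamine-only and 116, 133 and 120.2 in full medium. Its log2 changes against full medium were -2.89 ± 0.17, 0.58 ± 0.17 and -3.61 ± 0.17, all past the threshold. MYC had 311, 318 and 329 in deficient, 85.5, 79.6 and 95.2 in glucose-only, 71.3, 71.3 and 76.4 in glutamine-only and 42.3, 49.8 and 39.5 in full medium, so that it rose in all 3 comparisons, by 2.84 ± 0.12, 0.97 ± 0.12 and 0.73 ± 0.12, while most of the enzyme genes fell. PFKFB4, which sets the level of the activator of phosphofructokinase, fell, with log2 changes of -2.21 ± 0.25, -2.54 ± 0.25 and -0.69 ± 0.25 in the same order of media. PPP1R3C, a glycogen-targeting subunit of protein phosphatase 1, rose by 2.10 ± 0.39 in deficient medium and fell by 1.07 ± 0.39 in glucose-only medium. It reached 10 in the 3 deficient libraries alone, so it passed the filter only through the medium where it was high. Its fall compares means of 2.24 in glucose-only and 5.61 in full medium, which are few reads. Of 8 gluconeogenesis genes 2 were tested, and PC, pyruvate carboxylase, fell in glucose-only medium (-0.55 ± 0.19, limma adjusted p = 0.031).

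GAPDH and PGK1 are often used to scale mRNA measurements, and 11 other genes used that way were read beside them. Of the 11, 3 rose and 5 fell in deficient, none rose and 5 fell in glucose-only, and 2 rose and 4 fell in glutamine-only medium. Among all tested genes 51.8%, 22.9% and 22.5% were called in these media. The highest value was TBP at 0.83 ± 0.30 in deficient medium and the lowest HPRT1 at -1.30 ± 0.23 in glucose-only medium. PGK1 lay below all 11 in deficient and glucose-only medium. SDHA, GUSB and B2M did not pass in any of the 3, which does not show that they did not change.

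**Figure D5:**
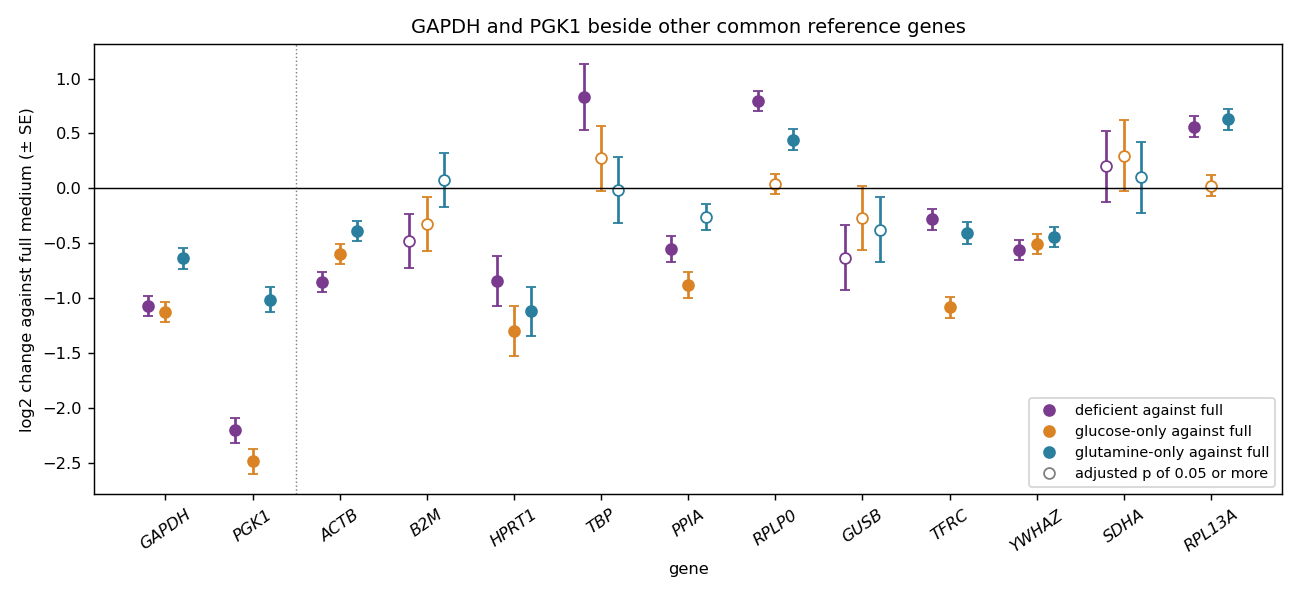
Log2 changes (± SE) against full medium of GAPDH and PGK1, left of the dotted line, and of 11 other common reference genes, with open circles where the adjusted p was 0.05 or more. PGK1 reaches -2.49, ACTB falls in all 3 media, and TBP is highest in deficient medium at 0.83.

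The closeness of a gene to the group was measured as the root mean square difference between its 4 medium means (log2, each centred on its own mean) and the median of the 10 members. Among 1012 other protein-coding genes with a mean of at least 100, the closest were ENO2 at 0.06, ERO1A at 0.10, TAGLN2 at 0.11, S100A10 at 0.11, BNIP3L at 0.13 and COX8A at 0.17. BNIP3L, a mitophagy receptor, had 80.5 in deficient, 101 in glucose-only, 170 in glutamine-only and 224 in full medium on average. ERO1A, an oxidase of the endoplasmic reticulum, had 93.7, 91.8, 186 and 236 in the same order. Measured the same way against the median of the other 9, GPI lay closest at 0.10 and ENO1 next at 0.13, while PGK1 at 0.49, PFKP at 0.57 and HK2 at 1.02 lay farthest. The likeness rests on 4 means and is a description.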

How the data were processed

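Total RNA libraries were sequenced by the authors, whose deposited table holds normalized counts, a signal per gene made by dividing whole reads by 1 size factor per library. Per the submitters' processing notes, FastQC, HISAT2, Subread and DESeq2 were used with GRCh38.p14; versions, annotation and strand setting are not given in the sources used here. In every library 100% of the deposited values were whole multiples of 1 step, within 0.01 reads, so reads could be recovered. On those reads edgeR's quasi-likelihood test called 5004 genes in deficient, 2229 in glucose-only and 2446 in glutamine-only against full medium, where limma called 4804, 2124 and 2083. Rows reaching 10 in at least 3 of the 12 libraries were tested, 9270 of 32493 with any read, by the limma-trend method (limma 3.58.1, R 4.3.3). Values entered as log2 with a pseudocount of 1, with 1 mean per medium over all 12 libraries (8 residual degrees of freedom), two-sided, with Benjamini-Hochberg adjustment over the 9270. Fold changes are on that scale, which understates the change of weak genes. The script was tested on simulated data. No 2 libraries of a medium were alike within sampling noise.

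The text names all 10 members, every tested isozyme and, except for the reference genes, up to 4 genes of each other list by largest change against full medium. For the reference genes the highest and lowest values are given instead. The promoters printed, the isozyme shares and the reference genes that did not pass were picked after the values were seen. Of the listed reference genes, 2 are not reported here. The members and lists were chosen with earlier results of these data known. Exon and transcript overlap came from GENCODE release 29, and positions and promoters from RefSeq GRCh38.p14. Alternatives were the pseudocount, the filter, 3 other scalings, a replicate block, the 2 groups alone, edgeR 4.0.16, DESeq2 1.42.0, pseudogene rows added, each library left out and a threshold of 0.01.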

Additional observations from a re-analysis of the deposited data

Results flagged for a closer look

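In 7 of the 10 enzyme genes the effect of glucose differed between media with and without glutamine, by the interaction term of the limma fit. Of all tested genes, 26.5% were called for this term (15.5% higher and 11% lower). The interaction, in log2 units, was 2.28 for HK2, 1.30 for PGK1, 1.04 for TPI1, 1.00 for PGAM1, 0.69 for GAPDH, 0.68 for PFKP and 0.37 for ENO1. In HK2 and PFKP glucose alone went with a fall against deficient medium, at -2.08 and -0.57, and no difference passed between glutamine-only and full medium. In TPI1, GAPDH and PGAM1 the reverse held: glucose alone gave no called change and the genes were lower in glutamine-only than in full medium. PGK1 combined a small fall with glucose alone, lost under several alternatives and without single libraries, and a 2.02-fold lower level in glutamine-only than in full medium. The call for PFKP was lost with quantile normalization (0.39, adjusted p = 0.0891), the call for PGAM1 with DESeq2 (0.96, adjusted p = 0.101), and the call for ENO1 with several alternatives and single libraries left out.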

How the results depend on the processing

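Of 2184 values of the 10 genes under 25 alternatives, 2066 kept their side of the threshold, and their direction where called, 108 lost the threshold, 9 gained it and 1 turned round: GAPDH in glucose-only against deficient medium was 0.31 with quantile normalization (adjusted p = 0.00599), against -0.06 and not called. Among the 2066, 26 uncalled values changed sign. All 8 calls in deficient against full medium held wherever the gene was tested, as did 8 of 9 in glucose-only and 6 of 7 in glutamine-only against full medium, with PFKP and GPI as the exceptions. With a mean of at least 100, which leaves HK2, GPI, ALDOA and PGAM1 untested, the counts were 0 higher in deficient against full, 0 lower and 5 higher in glutamine-only against deficient, and 5 higher for average glutamine. The count higher in glucose-only against deficient medium, 1 in the report, was 0 with a pseudocount of 8, no filter, the 2 groups alone, edgeR or a threshold of 0.01. It was 2 with a mean of at least 100, equal totals, median of ratios on nuclear protein-coding genes or the replicate block, 3 with quantile normalization, and 0 to 1 without single libraries. The count lower for average glucose, 2 in the report, was 1 with DESeq2, equal totals, a threshold of 0.01, quantile normalization, no filter or the stricter filter at a mean of 100, and 1 to 2 without single libraries.

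Same-lettered libraries did not deviate together (0 of 18 correlations above 0.1, from -0.029 to 0.067), and the replicate block moved no other count. Equal totals moved the median log2 change of all genes by -0.39 in deficient, -0.21 in glucose-only and -0.12 in glutamine-only against full medium. Higher calls were then 23.6%, 15.5% and 31.6% of all calls, against 50.8%, 41.2% and 48.2%. Relative to the median of all genes under equal totals, PGK1 stood at -2.23, -2.47 and -1.01 and HK2 at 1.14, -0.90 and -0.20. The same scaling moved the median by 0.17 in glucose-only and 0.27 in glutamine-only against deficient medium, by 0.14 for average glucose and by 0.24 for average glutamine. Its shares of higher calls were 21.3% in glucose-only against glutamine-only (37.9% as deposited), 63.4% and 75.0% against deficient medium (46.4% and 48.0%), and 67.6% and 82.5% for the averages (47.3% and 51.2%). For the interaction it was 45.7% with quantile normalization, against 58.5%. Over all tested genes, DESeq2 called 1255 in glucose-only against full, 604 in glucose-only against glutamine-only and 1495 for the interaction, where limma called 2124, 1234 and 2458. With a threshold of 0.01 limma called 1245, 656 and 1496 in the same 3, and 1276 against 2083 in glutamine-only against full. The filter at a mean of 100 left 1213 genes, of which 486 to 903 were called in each comparison. Low depth leaves ALDOA, with a mean of 7.86, and HKDC1 imprecise.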

Other observations

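LDHA, the lactate dehydrogenase that follows PKM in cells that ferment glucose, was listed at 0 to 1.83 normalized counts in the 12 libraries, and the lactate transporter SLC16A1 at 0 in all 12. PCK2, the mitochondrial phosphoenolpyruvate carboxykinase, was listed at 0 to 1.86. None of the 3 shares coding bases with another gene on the same strand in GENCODE release 29, unlike ALDOA, and a value listed at 0 does not show that a gene was silent. The table also held 98 rows named as pseudogenes of the members, 65 of them of GAPDH, whose sum was 4.55% of the GAPDH level. For ALDOA the sum was 6.27%, for TPI1 2.03%, for PGK1 1.31% and for ENO1 0.0632% of the level of the gene.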
